A study of Mus musculus with 12 samples.

Results

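The genes described here encode enzymes of central carbon metabolism: glycolysis, the entry of pyruvate into the mitochondrion, the tricarboxylic acid (TCA) cycle, the pentose phosphate pathway and, as a branch of the TCA cycle, Acod1, which makes itaconate. They were chosen by name, from a list of 37 genes, through the gene name that the array files give each probe or its older form (Pkm2 for Pkm, Irg1 for Acod1, Mod1 for Me1). Of the 37, 36 had a probe and were tested, out of 18381 genes tested in all. Gapdh, the glyceraldehyde phosphate dehydrogenase of glycolysis, had no probe under its own name in the files used here and was not analysed here. The 36 genes had 63 probes, of which 60 were kept. A probe was kept when, in 1 or more groups, the scanner software called both arrays well above background for it, and each gene was read from its brightest kept probe. The probe tested was well above background on all 12 arrays for each of the 36 genes, and on none was it saturated.

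The cells were macrophages grown from mouse bone marrow with CSF1, the growth factor of this lineage, and measured on single-colour Agilent arrays. Interleukin-4 (IL-4), a cytokine that drives the alternative activation of macrophages, was given at 10 ng/ml to cells of Balb/cAnNCrl (here Balb/c) and C57BL6/J (here C57BL6) mice. In each strain the groups were cells without IL-4 (mock), cells with IL-4 for 4 h and cells with IL-4 for 18 h, with 2 arrays a group and 12 arrays in all. The protocol text common to all samples also mentions lipopolysaccharide (LPS), an inflammatory stimulus that is known to induce Acod1, but no title, description or characteristic gives LPS to a sample, and whether any culture received it is not stated. Mock cells were kept for 18 h, so that the 4 h cells had no mock of their own time. Donors were 8 to 12 weeks old, and marrow of 2 males and 1 female was pooled for a sample. The study's design text describes separate experiments, with other littermates for each, so that arrays of one strain with the same replicate number were treated as a pair in a second fit. With 2 arrays a group, the number of arrays limits the precision of every value, and a level from a whole culture cannot tell fewer cells of a type from less RNA per cell.

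Glycolysis splits glucose into pyruvate in the cytosol, with a net gain of ATP and NADH. Pyruvate is then either reduced to lactate or passed to the pyruvate dehydrogenase complex, whose acetyl-CoA enters the TCA cycle, while the pentose phosphate pathway draws on glucose 6-phosphate to make NADPH and ribose 5-phosphate. In macrophages, inflammatory stimuli are known to raise glycolysis and itaconate production, and alternative activation is known to go with oxidative metabolism in mitochondria. Acod1, also called Irg1, decarboxylates cis-aconitate, an intermediate of the TCA cycle, to itaconate.

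Acod1, Idh2 and Sdha were the members called after IL-4 in the fit without pairs, and the 250 bases upstream of their annotated starts are shown for that reason. They are RefSeq sequences on GRCm38.p6, read 5' to 3' on the strand of the gene, with capitals for the letters ACGTG on either strand (CACGT when read on the other strand).
Acod1: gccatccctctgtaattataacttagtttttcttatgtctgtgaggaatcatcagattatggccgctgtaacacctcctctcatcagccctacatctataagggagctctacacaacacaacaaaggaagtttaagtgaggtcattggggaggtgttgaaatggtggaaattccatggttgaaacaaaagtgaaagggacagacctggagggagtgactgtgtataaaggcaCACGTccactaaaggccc
Idh2: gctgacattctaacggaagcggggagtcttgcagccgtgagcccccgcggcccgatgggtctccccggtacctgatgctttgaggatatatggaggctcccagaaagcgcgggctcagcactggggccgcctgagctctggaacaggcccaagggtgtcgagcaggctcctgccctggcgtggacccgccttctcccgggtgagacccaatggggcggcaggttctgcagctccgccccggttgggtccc
Sdha: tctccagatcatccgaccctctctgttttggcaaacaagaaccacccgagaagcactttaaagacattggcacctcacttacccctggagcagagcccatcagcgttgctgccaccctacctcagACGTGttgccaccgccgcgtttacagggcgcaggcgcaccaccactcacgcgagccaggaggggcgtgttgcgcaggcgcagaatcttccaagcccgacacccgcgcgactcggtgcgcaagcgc
The windows lie at chr14:103046762-103047011 on the plus strand for Acod1, at chr7:80115351-80115600 on the minus strand for Idh2 and at chr13:74350241-74350490 on the minus strand for Sdha. The Acod1 window held ACGTG once, starting at position -18 from the annotated start, the Sdha window held it once at -125, and the Idh2 window did not hold these letters. The table held upstream windows of 35 of the 36 members, all but Idh3a. ACGTG was in a window of 14 of the 35 genes (40%), against 18.5% of all 27025 genes in the table and 20% of its 17492 protein-coding genes. Both strands were searched. A gene counted when any of its windows held the letters. The 35 member genes had 56 windows and all 27025 genes had 32851, so members had more windows a gene and the shares of genes are not like for like. Of all 32851 windows 16.6% held ACGTG. The longer CACGTG, which contains ACGTG, was in 4 member genes (11.4%) against 6.86% of all genes. The letters TTC and GAA with 4 bases between them, a spacing that STAT6, the factor IL-4 activates, is known to bind, were in 5 member genes (14.3%) against 6.76% of all genes. With 3 bases between them the same letters were in 2 member genes (5.71%) against 8.13%. A pair of GAAA with 2 bases between them was in 0 member genes, against 3.46%. A match is a description of letters in the window, and no test was made of it.

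Levels are given as log2 of the signal after subtraction of the array's 75th percentile, so that a level of 0 equals the 75th percentile of that array and a difference of 1 is a doubling. Levels of different genes come from different probes and are not set against each other. Between 54.9% and 69.7% of the 43379 spots of an array were well above background, and replicate arrays of a group correlated with r between 0.974 and 0.989 across genes. All 8 macrophage markers tested were well above background on the 12 arrays. Lyz2, macrophage lysozyme, lay between 7.53 and 7.97 and Adgre1, a macrophage surface receptor, between 7.06 and 7.43, while Cd14 ranged from 2.44 to 7.00 and Mertk from -1.02 to 1.05. Nnt, a mitochondrial transhydrogenase that is truncated in C57BL/6J mice, lay between 1.91 and 2.44 on the 6 Balb/c arrays and between 0.69 and 0.98 on the 6 C57BL6 arrays, as the strain labels give it. Slide and strain overlapped: 1 slide held only Balb/c arrays, 1 only C57BL6 arrays, and the remaining slide held 2 of each strain. The mock and 4 h arrays of Balb/c replicate 1 stood apart from the other Balb/c arrays in some readings. Cycling markers summed to 5.84 and 5.90 on these 2 arrays, against 6.63 to 7.13 on the other Balb/c arrays. On the same 2 arrays the phosphofructokinase gene Pfkp read 1.04 and 1.48, against 2.23 to 2.62 on the other 4, and Idh3a read 1.15 and 1.70, against 2.38 to 3.04. Counts of called members are therefore given with and without these arrays for most comparisons. Leaving them out leaves 1 Balb/c array in mock and 1 at 4 h. Across all genes the replicates correlated with r of 0.982 in Balb/c mock and 0.974 in Balb/c at 4 h. In C57BL6 these values were 0.981 and 0.986. Whether the 2 arrays were faulty was not tested.

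Acod1 was the member with the largest change after IL-4. In Balb/c cells it read 1.71 and 2.59 in mock, 0.10 and 1.90 at 4 h, and -1.92 and -0.76 at 18 h. In C57BL6 cells it read 3.83 and 3.67 in mock, 2.96 and 2.51 at 4 h, and 0.58 and -0.23 at 18 h. All 4 arrays of 18 h lay below all 4 mock arrays, and at 4 h the mean of each strain lay between its mock and 18 h means. Acod1 fell by 3.53 ± 0.45 on the log2 scale at 18 h over both strains (SE, 4 arrays against 4), 11.6-fold lower, with a Benjamini-Hochberg adjusted p of 0.00212 from limma. Within a strain it fell by 3.49 ± 0.64 in Balb/c (adjusted p = 0.0219, limma) and by 3.58 ± 0.64 in C57BL6 (adjusted p = 0.0200, limma). The gene lies at chr14:103047012-103056573, and a second probe for it gave -3.48 at 18 h over both strains. Between 4 h and 18 h Acod1 fell by a further 2.45 ± 0.45 (adjusted p = 0.0251, limma). At 4 h against mock its change was -1.08 ± 0.45 over both strains, with adjusted p = 0.229 without pairs and 0.0108 with replicates as pairs. The 18 h difference was as large within a slide: -4.07 on the slide that held 1 Balb/c array of 18 h and 2 of mock, and -3.49 on the slide with 2 C57BL6 arrays of 18 h and 1 of mock. Another background correction (normexp) gave -3.04 (adjusted p = 0.139, limma) in Balb/c and -3.17 (adjusted p = 0.105, limma) in C57BL6, and leaving out any 1 array of 18 h or mock of the strain also ended the call within that strain. In Balb/c a fit of only the arrays compared gave adjusted p = 0.152. Over both strains the call held under each of the 10 other settings and without each of the 12 arrays in turn.

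Markers of other cell types were read beside Acod1. Of 8 listed neutrophil markers 6 were tested, 1 was lower at 18 h over both strains (5.91% of all genes were), and their summed level was 1.03 to 3.58 at 18 h and 1.78 to 3.94 in mock. Elane, a defining granule protease, was well above background on 1 array only, and Ly6g had no probe. Of the 8 macrophage markers tested, 3 were lower at 18 h (Cd14, Fcgr1 and Mertk), and their summed level was 9.07 to 9.30 at 18 h and 9.31 to 9.63 in mock. The part of these markers in the fall of Acod1 was not tested.

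**Figure D1:**
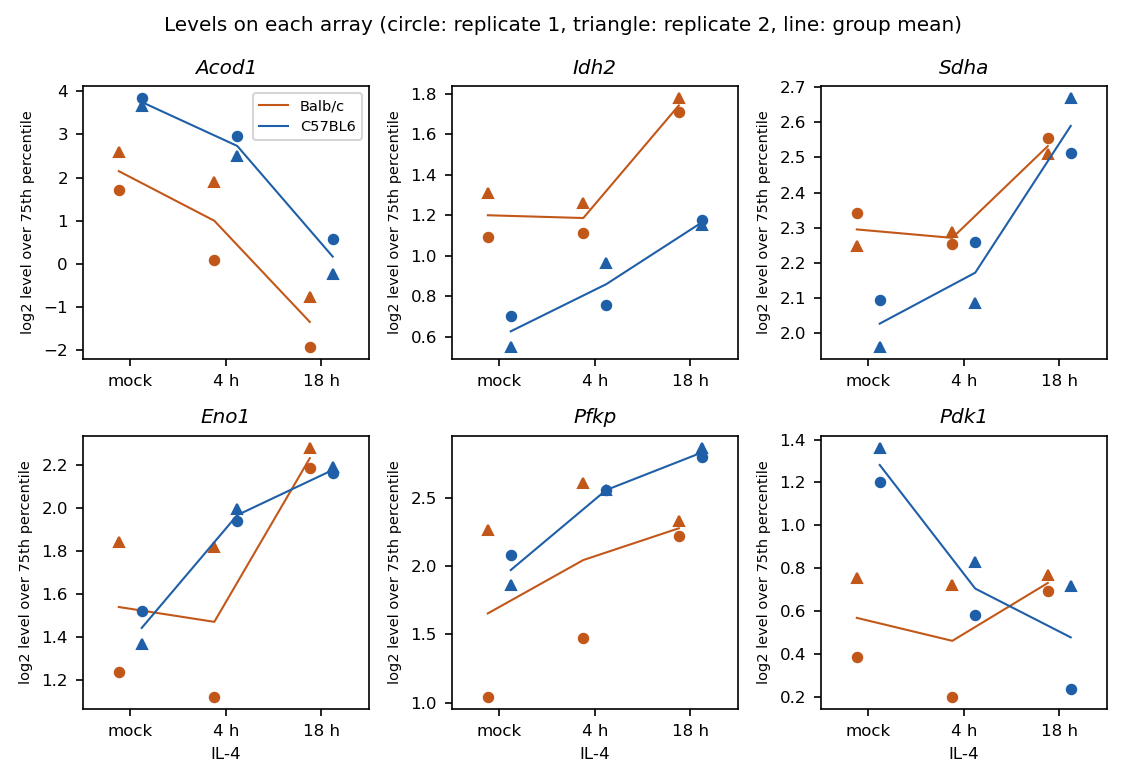
Level of 6 genes on each array (log2 signal over the 75th percentile of the array, vertical axis) by time of IL-4 (horizontal axis), Balb/c in orange and C57BL6 in blue. Circles are replicate 1, triangles replicate 2 and lines join group means. Acod1 is lower at 18 h than in mock on every array, and Pfkp and Eno1 of Balb/c replicate 1 lie apart from replicate 2 in mock and at 4 h.

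Of the 9 TCA genes tested, Idh2 and Sdha rose at 18 h over both strains without pairs, and the other 7 did not pass the threshold. The change over both strains was positive for all 9, between 0.19 and 0.62 with a median of 0.37, where the median of all genes was 0.00 and 49.8% of all genes had a positive change. The 9 changes were also positive within Balb/c (0.15 to 0.87) and within C57BL6 (0.07 to 0.56). Most members shared this sign in Balb/c: 31 of the 36 members had a positive change at 18 h, against 52.4% of all genes. Among them were 6 of 7 genes of lower glycolysis (median 0.49, against 0.38 for the TCA genes) and all 4 pentose phosphate genes. These 6 glycolytic genes read lower in mock replicate 1 than in mock replicate 2. So did the TCA genes Cs, Idh2, Idh3a, Ogdh, Suclg1 and Mdh2, while Sdha, Sdhb and Fh1 read higher in mock replicate 1. That array is 1 of the 2 Balb/c arrays that stood apart. Without these 2 arrays 27 of the 36 members were positive in Balb/c, and medians without them are not given. In C57BL6 19 of the 36 were positive, against 46.4% of all genes. Of all 36 members 3 were called over both strains without pairs, against 9.42% of all genes. With replicates as pairs 13 of 36 (36.1%) were called, against 25% of all genes. Of the 13, 9 were higher (10.9% of all genes) and 4 lower (14.1% of all genes). Among the called were 2 of the 9 TCA genes without pairs and 5 with pairs. Without the 2 Balb/c arrays that stood apart, 2 members were called without pairs (Acod1 and Eno1, against 9.02% of all genes) and 4 with pairs (Acod1, Aldoc, Eno1 and Me1, against 14.5% of all genes), so that no TCA gene passed the threshold there.

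Idh2, the mitochondrial NADP-dependent isocitrate dehydrogenase, read 1.09 and 1.31 in mock, 1.11 and 1.26 at 4 h, and 1.71 and 1.78 at 18 h in Balb/c. In C57BL6 it read 0.70 and 0.55 in mock, 0.75 and 0.96 at 4 h, and 1.18 and 1.15 at 18 h. Within each strain both arrays of 18 h lay above both mock arrays, and the C57BL6 arrays of 18 h lay among the Balb/c mock arrays. Idh2 rose by 0.54 ± 0.11 at 18 h over both strains, 1.45-fold, with adjusted p = 0.0188 from limma. Without the 2 Balb/c arrays that stood apart the change was 0.49, with adjusted p = 0.0539. The call was also lost without any 1 of 6 of the 12 arrays (Balb/c mock replicate 1, C57BL6 mock replicate 2 and each array of 18 h), and with normexp, median scaling, no filter on dim probes or the slide as a block. The adjusted p in these fits lay between 0.0507 and 0.0863, and the change between 0.49 and 0.68.

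Sdha, the flavoprotein subunit of succinate dehydrogenase, read 2.34 and 2.25 in mock, 2.25 and 2.29 at 4 h, and 2.56 and 2.51 at 18 h in Balb/c. In C57BL6 it read 2.09 and 1.96 in mock, 2.26 and 2.09 at 4 h, and 2.51 and 2.67 at 18 h. All 4 arrays of 18 h lay above all 4 mock arrays, and the 4 h arrays lay near mock. Sdha rose by 0.40 ± 0.10 at 18 h over both strains, 1.32-fold, with adjusted p = 0.0459 from limma, just inside the threshold of 0.05. A second Sdha probe gave a change of 0.30 (adjusted p = 0.162). The call of Sdha was lost without any single array, with changes between 0.36 and 0.44. It was lost as well under 5 of the 10 other settings, among them normexp (change 0.67, adjusted p = 0.0923) and median scaling (adjusted p = 0.186). Sdhb, the iron-sulfur subunit of the same enzyme, changed by 0.19 ± 0.11 (adjusted p = 0.356, limma).

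The other TCA genes did not pass the threshold without pairs. Ogdh, of the oxoglutarate dehydrogenase complex, read 0.13 and 0.24 at 18 h and -0.13 and -0.10 in mock in Balb/c, and 0.40 and 0.49 at 18 h and 0.01 and 0.11 in mock in C57BL6. All its 18 h arrays lay above all its mock arrays, and its change was 0.34 ± 0.09 with adjusted p = 0.0598 without pairs and 0.0123 with pairs. Suclg1, a subunit of succinate-CoA ligase, changed by 0.39 ± 0.12, with adjusted p = 0.0831 without pairs and 0.0238 with pairs. Idh3a, the catalytic subunit of the NAD-dependent isocitrate dehydrogenase, changed by 0.62 ± 0.36, with adjusted p = 0.390 without pairs and 0.0209 with pairs. Its change was 0.27 without the 2 Balb/c arrays that stood apart. Cs (citrate synthase), Mdh2 (mitochondrial malate dehydrogenase) and Fh1 (fumarase) changed by 0.24, 0.37 and 0.33, with adjusted p between 0.200 and 0.407. At 4 h none of the 9 TCA genes was called without pairs. Fh1 changed by 0.54 ± 0.20 at 4 h, with adjusted p = 0.175 without pairs and 0.0375 with pairs.

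At 4 h none of the 36 members was called without pairs, in Balb/c (1.44% of all genes), in C57BL6 (3.23% of all genes) or over both strains (6.74% of all genes). At an unadjusted p under 0.05 there was 1 member in Balb/c (10.1% of all genes), and there were 3 in C57BL6 (16% of all genes) and 4 over both strains (19.9% of all genes), in each case a smaller share than that of all genes. With pairs 5 members were called over both strains (13.9%), against 23.3% of all genes. Fh1 was higher, and Acod1, Hk1, Mdh1 and Pfkfb3 were lower. For Hk1 only the tested probe fell, by -0.30 over both strains. Its other kept probes changed by 0.01, 0.13, 0.02 and 0.07. The brightest of these read 0.28 and 0.06 in mock and 0.36 and 0.18 at 4 h in C57BL6. With pairs 4 members were called in C57BL6 (Acod1, Hk1, Mdh1 and Pdk1, all lower, against 16.6% of all genes in either direction and 9.47% lower) and 0 in Balb/c (7.31% of all genes). Without the 2 Balb/c arrays that stood apart, 0 members were called over both strains without pairs (4.61% of all genes) or with pairs (14.8% of all genes). Without these arrays the paired fit in C57BL6 called Fh1 alone (higher, 12.5% of all genes) in place of the 4 named, and the fit without pairs called 0 members (4.47% of all genes). In Balb/c 0 were called without these arrays, without pairs (0.337% of all genes) or with pairs (0.0381% of all genes).

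**Figure D2:**
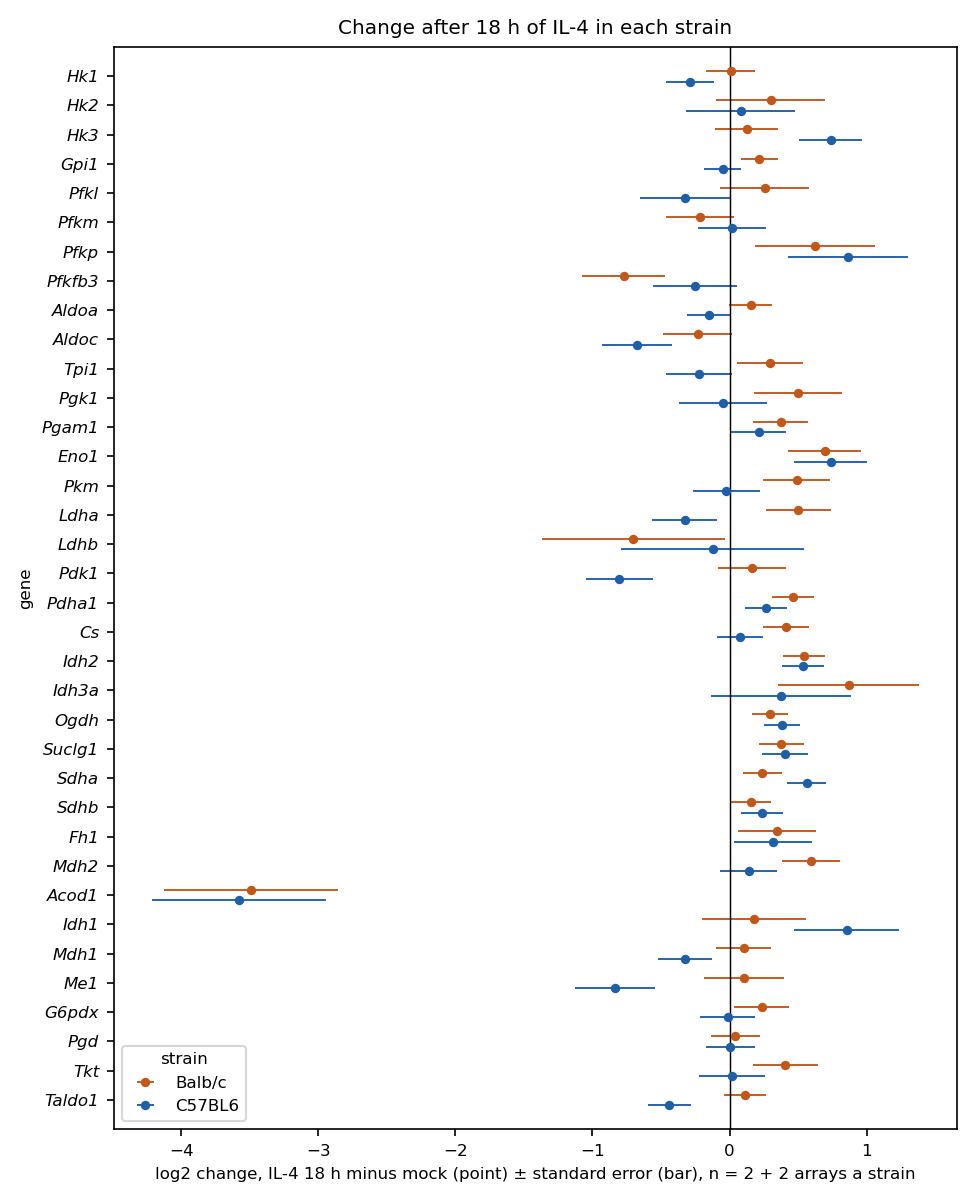
Change of each of the 36 genes after 18 h of IL-4 (log2 difference from mock, horizontal axis), Balb/c in orange and C57BL6 in blue, with bars for the standard error from the fit of all 12 arrays. Acod1 lies near -3.5 in both strains, and the 9 TCA genes from Cs to Mdh2 lie right of 0 in both.

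Glycolytic genes went both ways. Of the 17 glycolytic genes tested, 11 had a positive and 6 a negative change at 18 h over both strains (49.8% of all genes positive). Their median was 0.08. In Balb/c 13 of the 17 were positive (52.4% of all genes), with a median of 0.255. In C57BL6 6 were positive (46.4% of all genes), with a median of -0.05. Over both strains none was called without pairs. With pairs Eno1 and Pfkp were higher, and Aldoc, Ldhb and Pfkfb3 were lower. Eno1, the enolase that makes phosphoenolpyruvate, read 1.24 and 1.84 in mock, 1.12 and 1.82 at 4 h, and 2.19 and 2.28 at 18 h in Balb/c. In C57BL6 it read 1.52 and 1.36 in mock, 1.94 and 1.99 at 4 h, and 2.16 and 2.19 at 18 h. All 4 arrays of 18 h lay above all 4 mock arrays. Its change of 0.71 ± 0.19, 1.64-fold, had adjusted p = 0.0525 without pairs, 0.00944 with pairs and 0.0258 (change 0.56) without the 2 Balb/c arrays that stood apart.

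Pfkp, the platelet-type subunit of phosphofructokinase, read 2.08 and 1.86 in mock, 2.56 and 2.56 at 4 h, and 2.80 and 2.87 at 18 h in C57BL6. In Balb/c it read 1.04 and 2.27 in mock, 1.48 and 2.62 at 4 h, and 2.23 and 2.33 at 18 h. The C57BL6 groups did not overlap, and the Balb/c groups did. Over both strains the change was 0.74 ± 0.31, with adjusted p = 0.210 without pairs and 0.0435 with pairs, and 0.44 without the 2 Balb/c arrays. The liver subunit Pfkl and the muscle subunit Pfkm changed by -0.03 and -0.10, and neither was called. Pfkfb3, which makes fructose 2,6-bisphosphate, the activator of phosphofructokinase, changed by -0.51 ± 0.22 at 18 h and by -0.66 ± 0.22 at 4 h. Its adjusted p was 0.214 and 0.127 without pairs and 0.0466 and 0.0234 with pairs. Without the 2 Balb/c arrays its change at 18 h was -0.26.

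Aldoc, a second aldolase, read 1.86 and 2.15 at 18 h and 2.58 and 2.78 in mock in C57BL6. Its change there was -0.68 ± 0.25, with adjusted p = 0.213 without pairs and 0.0202 with pairs. In Balb/c it read 2.04 and 1.39 at 18 h and 2.05 and 1.84 in mock, and these groups overlapped. Aldoa, the main aldolase of most tissues, changed by 0.00 ± 0.11 over both strains. Of the hexokinases, which make glucose 6-phosphate, Hk3 changed by 0.74 ± 0.23 in C57BL6, with adjusted p = 0.137 without pairs and 0.0378 with pairs. Hk3 changed by 0.12 ± 0.23 in Balb/c and was not called there. Hk2 and Hk1 changed by 0.19 and -0.14 at 18 h over both strains, and neither was called. The isomerases Gpi1 and Tpi1, the kinase Pgk1, the mutase Pgam1 and the pyruvate kinase Pkm changed by 0.03 to 0.29, with adjusted p between 0.290 and 0.947. Ldha, the muscle-type subunit of lactate dehydrogenase, read 6.79 and 6.71 at 18 h and 5.94 and 6.56 in mock in Balb/c, against 6.56 and 6.55 at 18 h and 6.95 and 6.81 in mock in C57BL6. Its change was 0.50 in Balb/c and -0.33 in C57BL6, and neither was called.

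Ldhb, the heart-type subunit, differed more between the Balb/c replicates than between times. It read 2.20, 1.97 and 1.35 in mock, at 4 h and at 18 h of Balb/c replicate 1, and 0.74, 0.50 and 0.18 in replicate 2. Replicate 1 was higher at each time, by 1.17 to 1.47. Its change in Balb/c at 18 h was -0.70 ± 0.67, with adjusted p = 0.705 without pairs and 0.0131 with pairs. Leaving out Balb/c mock replicate 1 turned it to 0.028, a value that sets both 18 h arrays against mock replicate 2 alone. Within each replicate Ldhb was lower at 18 h than in mock. For 19 of the 36 members the mean gap between the Balb/c replicates was larger than the change at 18 h, against 53.3% of all genes. In C57BL6 this held for 10 of 36, against 40.3% of all genes.

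**Figure D3:**
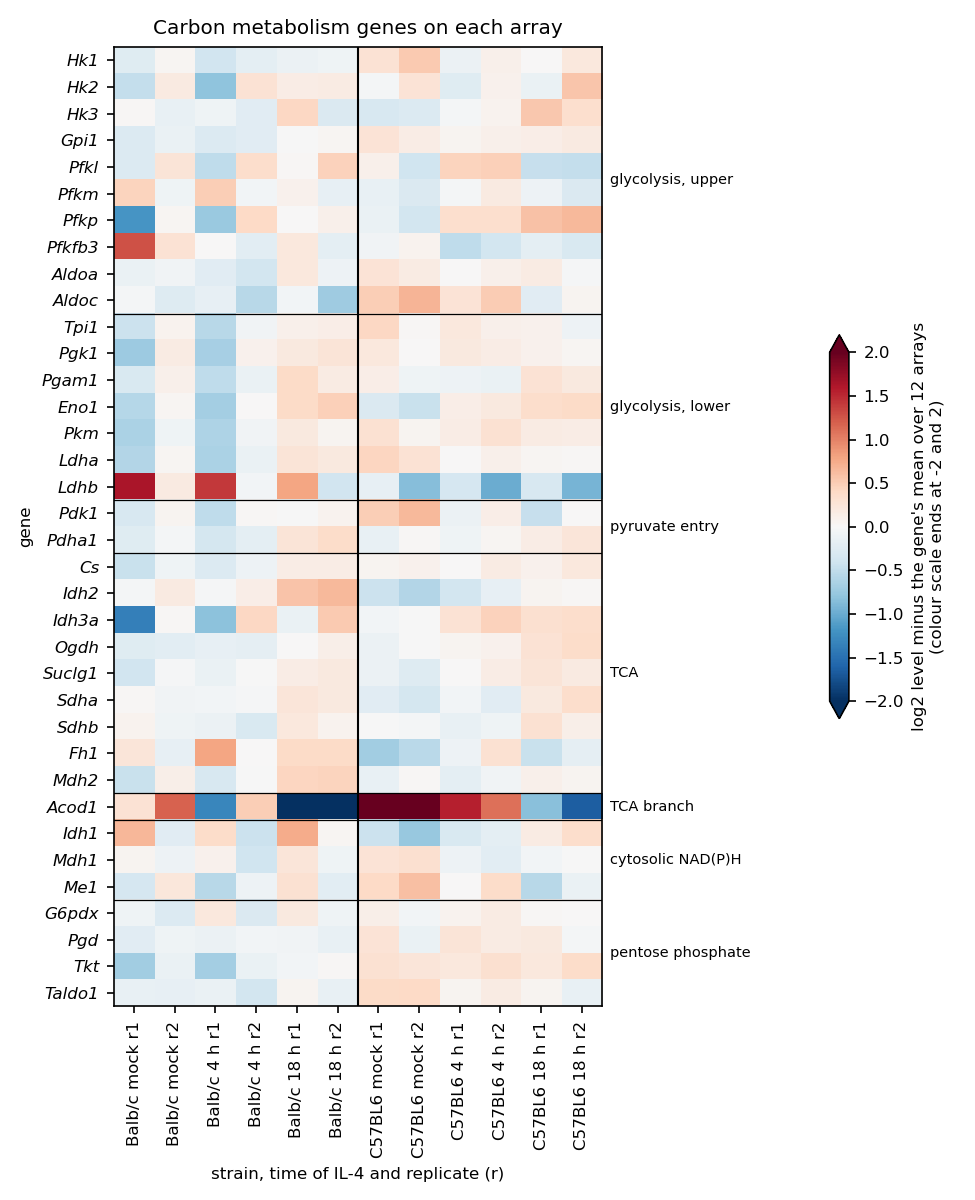
Level of each gene on each array as the log2 difference from the mean of that gene over the 12 arrays (blue lower, red higher), with genes by pathway down the page and arrays by strain, time and replicate (r) across. Acod1 changes from red to blue with IL-4 in both strains. Columns of Balb/c replicate 1 in mock and at 4 h are blue for Pfkp and Idh3a and red for Ldhb.

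At the step between glycolysis and the TCA cycle, the complex subunit Pdha1 and the kinase Pdk1, which inhibits the complex, were read. Pdha1 read 2.13 and 2.24 at 18 h and 1.62 and 1.83 in mock in Balb/c, and 2.02 and 2.12 at 18 h and 1.72 and 1.89 in mock in C57BL6. All its arrays of 18 h lay above all its mock arrays. The change was 0.36 ± 0.11, with adjusted p = 0.0839 without pairs and 0.00936 with pairs. Pdk1 read 1.20 and 1.36 in mock, 0.58 and 0.83 at 4 h, and 0.24 and 0.72 at 18 h in C57BL6. In Balb/c it read 0.38 and 0.75 in mock, 0.20 and 0.72 at 4 h, and 0.69 and 0.77 at 18 h. The C57BL6 arrays of IL-4 lay below both C57BL6 mock arrays, and the Balb/c groups overlapped. In C57BL6 the change at 18 h was -0.80 ± 0.25, with adjusted p = 0.129 without pairs and 0.0185 with pairs, and at 4 h -0.58 ± 0.25, with adjusted p = 0.303 without pairs and 0.0471 with pairs. A second Pdk1 probe showed smaller falls in C57BL6. It changed by -0.39 at 18 h (adjusted p = 0.659, limma on all kept probes), and read 1.01 and 0.89 in mock and 0.76 and 0.84 at 4 h.

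Of the cytosolic enzymes that pass electrons to NADPH or NADH, Idh1, the cytosolic isocitrate dehydrogenase, read 0.84 and 1.03 at 18 h and 0.24 and -0.08 in mock in C57BL6. In Balb/c it read 1.42 and 0.72 at 18 h and 1.34 and 0.45 in mock, so that replicates differed more than times. Its change in C57BL6 was 0.85 ± 0.38, with adjusted p = 0.301 without pairs and 0.0167 with pairs. Mdh1, the cytosolic malate dehydrogenase, changed by -0.45 ± 0.20 at 4 h in C57BL6, with adjusted p = 0.319 without pairs and 0.0483 with pairs. Of the other kept Mdh1 probes, the brighter did not show this fall. Its C57BL6 levels were 3.46 and 3.07 in mock and 3.34 and 3.25 at 4 h. The dimmer read -4.03 and -3.52 in mock and -4.32 and -3.97 at 4 h in C57BL6, lower in mean but overlapping. Me1, the NADP-dependent malic enzyme, changed by -0.84 ± 0.29 at 18 h in C57BL6 (adjusted p = 0.183, limma) and by 0.10 ± 0.29 in Balb/c.

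None of the 4 pentose phosphate genes was called after IL-4, with or without pairs. At 18 h over both strains G6pdx, which makes the first NADPH of the pathway, changed by 0.11 ± 0.14, Pgd, which makes the second, by 0.02 ± 0.13, Tkt by 0.21 ± 0.17 and Taldo1 by -0.16 ± 0.11. Tkt and Taldo1, transketolase and transaldolase, shuttle carbon between this pathway and glycolysis. The adjusted p of these 4 was between 0.465 and 0.949 without pairs and between 0.203 and 0.869 with pairs.

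The change between 4 h and 18 h was read over both strains. Acod1 was the 1 member called without pairs, against 3.74% of all genes, and with pairs 8 of 36 were called against 16.8% of all genes. The 7 higher ones (8.25% of all genes were higher) were Eno1, Pdha1, Idh2, Ogdh, Sdha, Sdhb and Idh1, between 0.25 and 0.49. The largest was Eno1 at 0.49 ± 0.19, with adjusted p = 0.237 without pairs and 0.0431 with pairs. When the 2 Balb/c arrays that stood apart were left out, Acod1 was the 1 member called, without pairs (3.62% of all genes) and with pairs (6.51% of all genes), so that none of the 7 higher members kept its call. Within strains at 18 h against mock, 1 member (Acod1) was called in Balb/c (3.79% of all genes) and 1 (Acod1) in C57BL6 (4.29% of all genes). With pairs 6 were called in Balb/c (15.2% of all genes) and 9 in C57BL6 (17.4% of all genes). Once the same 2 arrays were left out, Balb/c had 1 member called (Acod1) without pairs (3.19% of all genes) and with pairs (3.91% of all genes). C57BL6 then had 3 called without pairs (Acod1, Eno1 and Pfkp, 5.63% of all genes) and 7 with pairs (14% of all genes). In Balb/c 1 mock array remained, and the paired share of all genes called fell from 15.2% to 3.91%. Loss of the other 5 paired calls in Balb/c therefore cannot show that they rest on those arrays. Between mock and 18 h of Balb/c replicate 2, Eno1 went from 1.84 to 2.28 and Pdha1 from 1.83 to 2.24. Idh2 went from 1.31 to 1.78, Idh3a from 2.55 to 3.04 and Ldhb from 0.74 to 0.18. Each change had the direction of its paired call.

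Whether IL-4 acted differently in the strains was tested as a difference of changes, Balb/c minus C57BL6. No member was called at 4 h or at 18 h, and 0% of all genes were called by limma with or without pairs. At an unadjusted p under 0.05 there were 0 members at 4 h (2.41% of all genes) and 3 members at 18 h (5.28% of all genes). With the 2 Balb/c arrays left out no member was called either, at 4 h (0.00544% of all genes) or at 18 h (0.0163% of all genes). The 3 members at 18 h were Pdk1 at 0.97, Ldha at 0.83 and Taldo1 at 0.55, with adjusted p between 0.915 and 0.918. For Acod1 the difference at 18 h was 0.09 with a 95% interval of -1.98 to 2.16 on the log2 scale, a range that includes falls larger in either strain. For Idh2 it was 0.00 with an interval of -0.50 to 0.51, and for Sdha -0.33 with an interval of -0.79 to 0.14.

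The strains were compared over mock, 4 h and 18 h together. Idh2 was higher in Balb/c, and Acod1, Aldoc, Tkt and Gpi1 were lower in Balb/c, 5 members called of 36, against 17.6% of all genes in either direction and 10.2% lower. Of the 36 members 27 had lower means in Balb/c, with a median difference of -0.19, where the median of all genes was -0.05. None of the 5 was called with the slide as a block or with the replicate as a random block (5.89% of all genes), and none with the normexp background correction. None of the 5 turned sign with the slide as a block. Most arrays of each strain lay on a slide without the other strain, so that strain and slide cannot be fully told apart for these 5. In mock cells alone 0 members were called, against 5.27% of all genes, and 11 members had an unadjusted p under 0.05 (19.7% of all genes). Without the 2 Balb/c arrays that stood apart 3 members were called (Idh2, Aldoc and Tkt), against 13.3% of all genes, and 0 in mock alone (3.23% of all genes).

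Idh2 lay between 1.09 and 1.78 on the 6 Balb/c arrays and between 0.55 and 1.18 on the 6 C57BL6 arrays, and the strains overlapped. Its difference was 0.49 ± 0.09 with adjusted p = 0.0075 from limma, 0.104 with the random block and 0.115 with the slide (difference 0.58). On the slide that held both strains at 4 h, Idh2 read 1.26 in Balb/c and 0.75 in C57BL6. Acod1 lay between -1.92 and 2.59 in Balb/c and between -0.23 and 3.83 in C57BL6. Its difference of -1.61 ± 0.37 had adjusted p = 0.0195 without blocks, 0.0881 with the random block and 0.323 with the slide (difference -0.84). The pair at 4 h on the shared slide read 1.90 in Balb/c and 2.96 in C57BL6.

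Tkt lay between 5.36 and 6.08 in Balb/c and between 6.26 and 6.43 in C57BL6, and Gpi1 between 6.39 and 6.70 in Balb/c and between 6.71 and 6.93 in C57BL6. These were the 2 members whose strains did not overlap, both lower in Balb/c, where 4.6% of all genes were lower without overlap. Tkt differed by -0.56 ± 0.14 (adjusted p = 0.0272, limma) and Gpi1 by -0.30 ± 0.08 (adjusted p = 0.0338, limma). The pair on the shared slide read 5.92 in Balb/c and 6.26 in C57BL6 for Tkt, and 6.44 in Balb/c and 6.71 in C57BL6 for Gpi1. Aldoc lay between 1.39 and 2.05 in Balb/c and between 1.86 and 2.78 in C57BL6, and differed by -0.59 ± 0.15 (adjusted p = 0.0272, limma). On the shared slide it read 1.54 in Balb/c and 2.37 in C57BL6. Of the 36 members 9 turned sign when the slide entered the fit, among them Ldhb (1.20 without the slide and -0.13 with it), Idh3a (-0.46 and 0.25), Idh1 (0.39 and -0.19) and Hk2 (-0.16 and 0.43). Neutrophil markers moved with strain: all 6 tested were lower in Balb/c, where 10.2% of all genes were called lower and 44.5% had a higher mean. Their summed levels were 1.03 to 2.17 in Balb/c and 3.00 to 3.94 in C57BL6. The pair at 4 h on the shared slide summed to 2.17 in Balb/c and 3.75 in C57BL6. The part of these markers in the strain differences was not tested.

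**Figure D4:**
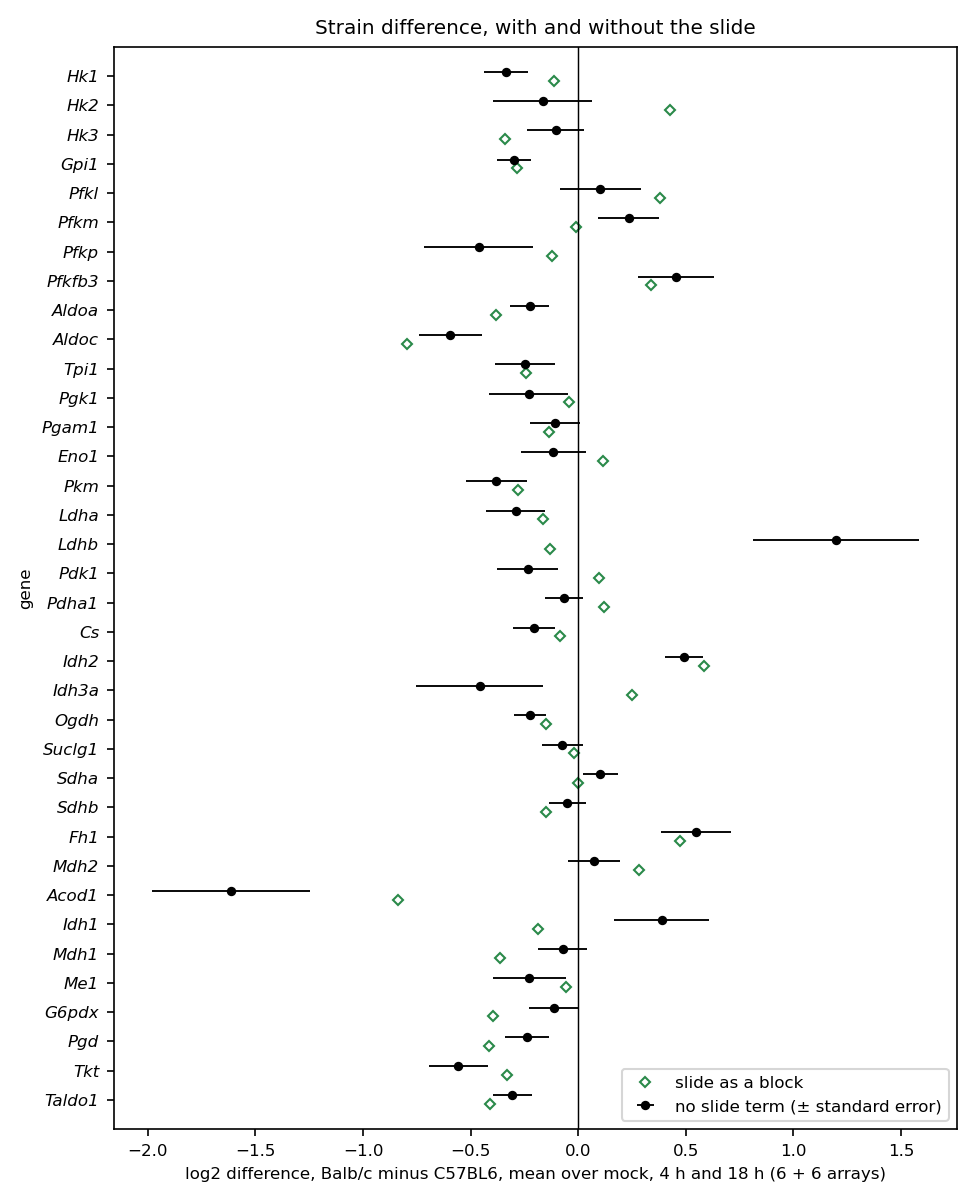
Strain difference of each of the 36 genes (log2, Balb/c minus C57BL6, mean over mock, 4 h and 18 h, horizontal axis), as the fit without a slide term (black, with the standard error) and with the slide as a block (green diamonds). Ldhb and Idh3a change sign with the slide, and Acod1 lies nearer to 0 with it.

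For 19 members more than 1 probe was kept, 43 probes in all. The sign of the change at 18 h over both strains was the same for all probes of 16 of the 19, and the sign of the strain difference for 17. Probes of 1 gene disagreed in size for several members. A second Aldoc probe fell by 0.99 at 18 h (adjusted p = 0.0051, limma on all kept probes), against -0.46 for the tested one. A second Pfkfb3 probe changed by -0.89 at 18 h (adjusted p = 0.0447) and a second Ogdh probe by 0.38 (adjusted p = 0.0485). For the strain difference, a second Pdk1 probe gave -1.51 (adjusted p = 0.0018) and a second Me1 probe -1.45 (adjusted p = 0.001), where the tested probes gave -0.23 each. Why probes of 1 gene differ was not tested.

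Genes that surround these pathways were read from 7 lists of 114 genes, of which 106 were tested. Of 25 tested genes of other glycolysis, gluconeogenesis and glycogen, 1 rose and 0 fell at 18 h over both strains, where 3.51% of all genes rose and 5.91% fell. The 1 was G6pc3, a glucose 6-phosphatase, at 0.64 ± 0.11 (adjusted p = 0.0091, limma). Of 22 other TCA and linked enzymes, 2 rose and 1 fell: Aco1, the cytosolic aconitase and iron regulatory protein, rose by 0.68 ± 0.12, Got1, a cytosolic aspartate aminotransferase, rose by 0.40 ± 0.10 (called in 2 of 12 fits with an array left out), and Slc13a3, a dicarboxylate carrier, fell by 1.44 ± 0.17. Slc13a3 read -6.90 and -6.81 at 18 h and -5.10 and -5.45 in mock in Balb/c, where no 18 h array was well above background, so that its Balb/c change is not an exact size. Of 8 tested members of the pyruvate dehydrogenase list, 1 rose: Pdp1, a phosphatase that reactivates the complex, by 0.69 ± 0.17 (adjusted p = 0.0407, limma; called in 3 of 12 such fits). Of 8 tested genes of other pentose phosphate and NADPH supply, 1 rose, Prps1, which makes phosphoribosyl pyrophosphate from ribose 5-phosphate, by 1.39 ± 0.29 at 18 h (called in 6 of 12 such fits) and by 2.14 ± 0.29 at 4 h.

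Of 17 regulators of oxygen and carbon sensing, 1 rose at 18 h, where 3.51% of all genes rose. It was Ppargc1b, a coactivator of mitochondrial genes, which rose by 1.48 ± 0.20 (adjusted p = 0.0029, limma). Ppargc1b rose by 1.62 ± 0.20 at 4 h, where 6.74% of all genes were called in either direction. At 4 h Nfe2l2, the NRF2 regulator, fell by 0.88 ± 0.21 (adjusted p = 0.0484, limma), a call that held in 1 of the 12 fits with an array left out. Of 16 tested hypoxia-inducible targets outside the members, 0 rose and 1 fell at 18 h (3.51% and 5.91% of all genes). The 1 was Ndrg1, which fell by 0.68 ± 0.18 (adjusted p = 0.0495, limma). This call was lost in all 12 fits with an array left out and held in 3 of 10 other settings. At 4 h Vegfa, a vascular growth factor, fell by 1.73 ± 0.41 (adjusted p = 0.0453, limma), which held in 2 of the 12 fits with an array left out. Of 10 glucose and monocarboxylate transporters, 0 rose and 1 fell at 18 h (3.51% and 5.91% of all genes). The 1 was Slc2a6, which fell by 0.55 ± 0.14 (adjusted p = 0.0472, limma). Its call was lost in all 12 such fits and held in 4 of 10 other settings. Between strains the largest differences in these lists were Slc13a3 and Fbp1. Fbp1, fructose 1,6-bisphosphatase of gluconeogenesis, averaged -0.47 in Balb/c and -4.70 in C57BL6, a difference of 4.23 ± 0.52 (adjusted p = 0.0011, limma). With the slide as a block the Fbp1 difference was 2.64 with adjusted p = 0.120. Slc13a3 averaged -5.91 in Balb/c, near background there, and -1.19 in C57BL6. Eno2, the neuronal enolase, averaged 0.92 in Balb/c and -0.65 in C57BL6, a difference of 1.57 ± 0.11 (adjusted p = 4.9e-05, limma).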

How the data were processed

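RNA of 12 samples was measured on single-colour Agilent arrays. The deposited scanner files give, per the file headers, each spot's processed green signal, a linear intensity with the background already subtracted. The submitters' processing notes name Agilent Feature Extraction 9.5.1.1. The authors also deposited a linear ratio per probe, found from the values to be a scaled signal divided by the average of the C57BL6 mock samples, and it served as an alternative. Control spots and outlier flags were left out, the deposited intensity was put on the log2 scale, and each array was centred on its 75th percentile. Of 41174 probes 27373 were kept. Probes were named through RefSeq (GRCm38.p6).

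Means of 6 groups were fitted to all 12 arrays in limma (version 3.58.1, under R 4.3.3), with 6 residual and 2.04 prior degrees of freedom. P-values were adjusted by Benjamini-Hochberg over 18381 genes and called below 0.05. The fit was tested on simulated data. Replicate numbers were checked as pairs: differences between the replicates of a strain correlated across genes between its states (r of 0.315 to 0.655 in Balb/c, 0.156 to 0.621 in C57BL6), so paired values stand beside results they change. The block was fixed for IL-4 effects and random (correlation 0.578) for strain. Alternatives were normexp (offset 50), quantile and median scaling, the deposited ratios, the filter on dim probes, the mean of a gene's probes, slide, replicate block, only the arrays compared, and each array left out. Every member could be named. Of the 7 other lists only called genes were named, at most 6 a direction. The members and lists were chosen with earlier results of these data known.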

Additional observations from a re-analysis of the deposited data

How the results depend on the processing

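Of the 11 single-gene results called without pairs, none changed direction over 242 results under other settings or with an array left out, and 99 of the 242 were past the threshold no longer; the cause was not tested. Of 39 results called with pairs only, 3 of 858 turned: Hk1 at 4 h in C57BL6 became 0.052 with the mean of its probes, Ldhb at 18 h in Balb/c became 0.028 without Balb/c mock replicate 1 (range -1.43 to 0.028 with 1 array left out), and Ldhb at 18 h over both strains became 0.085 with the slide as a block. Ldhb in Balb/c was also 0.028 without both Balb/c arrays that stood apart, a choice made after seeing the data. Each 0.028 sets the 18 h arrays of both replicates against mock replicate 2 alone. Within each Balb/c replicate Ldhb was lower at 18 h than in mock.

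Counts of called members moved as follows, by comparison. For 4 h in C57BL6 (0) the count was 4 with the replicate block, and 1 with the block and both doubted Balb/c arrays left out. For 18 h in C57BL6 (1) it was 0 with normexp, 2 with probes above background on all arrays, 2 with the mean of probes, 9 with the replicate block, 3 with both doubted arrays left out, and 7 with these left out and the block. For 18 h in Balb/c (1) it was 0 with normexp, 0 with only the arrays compared, 2 with the mean of probes and 6 with the replicate block. For 4 h over both strains (0) it was 1 with the mean of probes, 1 with the slide and 5 with the replicate block. For 18 h over both strains (3) it was 1 with normexp, 1 with median scaling, 1 with no filter, 5 with probes above background on all arrays and 13 with the replicate block. For 18 h against 4 h (1) it was 0 with normexp, 0 with only the arrays compared, 2 with probes above background on all arrays and 8 with the replicate block. For strain in mock (0) it was 2 with the mean of probes. For strain over all times (5) it was 0 with normexp, 0 with the slide, 0 with the replicate block, 3 with median scaling, 2 with no filter, 8 with probes above background on all arrays and 3 with both doubted arrays left out. With 1 array left out at a time the counts ran from 0 to 1 for 18 h in C57BL6, 0 to 1 for 18 h in Balb/c, 0 to 1 for 4 h over both strains, 1 to 5 for 18 h over both strains, 0 to 1 for 18 h against 4 h, 0 to 1 for strain in mock and 1 to 7 for strain over all times, and stayed at 0 for 4 h within each strain and for the strain differences of the IL-4 effect. Where an array left out leaves 1 in its group, that array is assumed to vary like the other groups. All members' tested probes were above background, but the background correction still moved results. With normexp the change of Acod1 at 18 h in Balb/c went from -3.49 to -3.04. With 2 arrays a group small changes such as those of the TCA genes lie near what the arrays resolve.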
